A study of Rattus norvegicus with 6 samples.

Results

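Expression of 9 genes of the myelin sheath and of the cells that make it was followed in cells cultured from the brainstem of the SHR, the inbred spontaneously hypertensive rat whose blood pressure climbs with age, and of the related normotensive WKY (Wistar Kyoto) strain. The genes were Mbp, Mog, Mobp, Mag, Cnp, Enpp6, Mal, Cldn11 and Apod, and every probe of the platform whose only gene symbol was one of these was used, which gave 15 probes of the 33849 in the series table, for 9 of 12198 genes named by at least 1 probe. Each strain had 3 single-colour CodeLink arrays, called SHR 1 to 3 and WKY 1 to 3 here, and each array carried RNA of cells pooled from 3 dishes. The labels name no treatment, age, sex or culture time for either strain. They do not state if pools within a strain came from separate litters or culture days. The p-values thus set the strain difference against the variation between these pools only. All 15 probes were valid on all 6 arrays and entered the test.

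Myelin is the layered membrane that oligodendrocytes wrap around axons in the brainstem and the rest of the central nervous system, and a few proteins made in large amounts by these cells hold its layers together. In glial cultures oligodendrocytes mature from dividing precursors, and transcripts of the major myelin proteins appear late in that course, after those of the lineage transcription factors. SOX10 and MYRF are transcription factors that activate myelin genes in differentiating oligodendrocytes.

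Promoter sequences of 8 of the 9 genes were found by symbol in RefSeq (build GRCr8), and 5 are shown: those of Mobp, Enpp6, Cldn11 and Apod, which had a probe with an unadjusted p under 0.05 between the strains, and that of Cnp, whose difference was the smallest in size. Each runs 5′ to 3′ on the gene's strand and ends before the outermost annotated start of the gene. Capitals mark the letters ACAAAG, a core of SOX binding sites, or CTGGNAC, a core of MYRF binding sites, on either strand, and no match of one overlapped a match of the other.
Mobp, chr8:128746982-128747116, plus strand: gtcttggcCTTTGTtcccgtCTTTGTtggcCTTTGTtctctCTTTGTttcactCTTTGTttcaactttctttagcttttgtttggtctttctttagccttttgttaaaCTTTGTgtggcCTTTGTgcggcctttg
Enpp6, chr16:52026790-52026978, minus strand: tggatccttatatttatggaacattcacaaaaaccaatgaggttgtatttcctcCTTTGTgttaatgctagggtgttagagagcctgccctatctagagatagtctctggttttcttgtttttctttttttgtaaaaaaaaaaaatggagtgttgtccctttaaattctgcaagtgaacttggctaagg
Cldn11, chr2:114149540-114149789, minus strand: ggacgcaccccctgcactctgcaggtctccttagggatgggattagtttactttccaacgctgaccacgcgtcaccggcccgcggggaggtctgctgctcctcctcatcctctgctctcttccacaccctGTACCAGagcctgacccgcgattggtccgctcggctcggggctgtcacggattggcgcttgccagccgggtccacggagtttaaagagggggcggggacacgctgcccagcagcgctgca
Apod, chr11:82935970-82936215, plus strand: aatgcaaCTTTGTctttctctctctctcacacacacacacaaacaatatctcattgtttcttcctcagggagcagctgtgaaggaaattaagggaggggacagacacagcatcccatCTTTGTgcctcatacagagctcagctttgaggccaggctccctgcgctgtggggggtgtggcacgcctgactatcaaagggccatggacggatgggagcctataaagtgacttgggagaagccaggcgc
Cnp, chr10:86011254-86011503, plus strand: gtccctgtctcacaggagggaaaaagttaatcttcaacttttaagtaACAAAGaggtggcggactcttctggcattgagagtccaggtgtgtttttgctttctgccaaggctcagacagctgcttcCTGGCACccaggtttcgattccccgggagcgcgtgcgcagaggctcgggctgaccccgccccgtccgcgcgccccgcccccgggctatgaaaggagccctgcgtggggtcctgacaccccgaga

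The 135 bases of Mobp held ACAAAG or its reverse complement 7 times, within a pyrimidine-rich run of near repeats. Of the 33469 promoter windows in the table, 1 held as many in its first 135 bases, which is that of Mobp, and 9.39% held at least 1. In Enpp6 the letters occurred 1 time in 189 bases (12.7% of all windows of that length held at least 1), in Apod 2 times in 246 bases (1.78% of all windows of that length held at least 2), and in Cldn11 not in these 250 bases. Cnp had the smallest strain difference, at a probe that lay at the top of the intensity scale. It held 1 match of each kind in 250 bases, where 16.3% of all windows of that length held ACAAAG and 14.8% held CTGGNAC. The promoter of Cldn11 held CTGGNAC 1 time. These matches describe letters in the sequence and are not evidence of binding.

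At the strain level, 14 of the 15 probes had a lower mean log2 intensity in SHR than in WKY, and the median difference was -0.90 (log2, SHR minus WKY), beside -0.0099 over all 33249 probes tested. By limma, 0 of the 15 probes passed an adjusted p of 0.05, where the background was 0% of all probes (0 of 33249). At an unadjusted p under 0.05, 5 of the 15 stood lower in SHR (background 4.01% of all probes) and 0 stood higher (background 3.65%). Mobp, Enpp6, Cldn11 and Apod supplied these 5 probes. At 7 of the 15 probes the mean was at least 2-fold lower in SHR, against 0.99% of all probes. Several genes had more than 1 probe. At the brightest probe of each gene, 2 of 9 stood lower at that unadjusted p, Mobp and Enpp6 (background 3.41% of named genes). At least 2-fold lower were 4 of 9 (background 0.737%). In RNA of whole cultures, fewer oligodendrocytes and less myelin RNA per oligodendrocyte cannot be told apart.

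**Figure D1:**
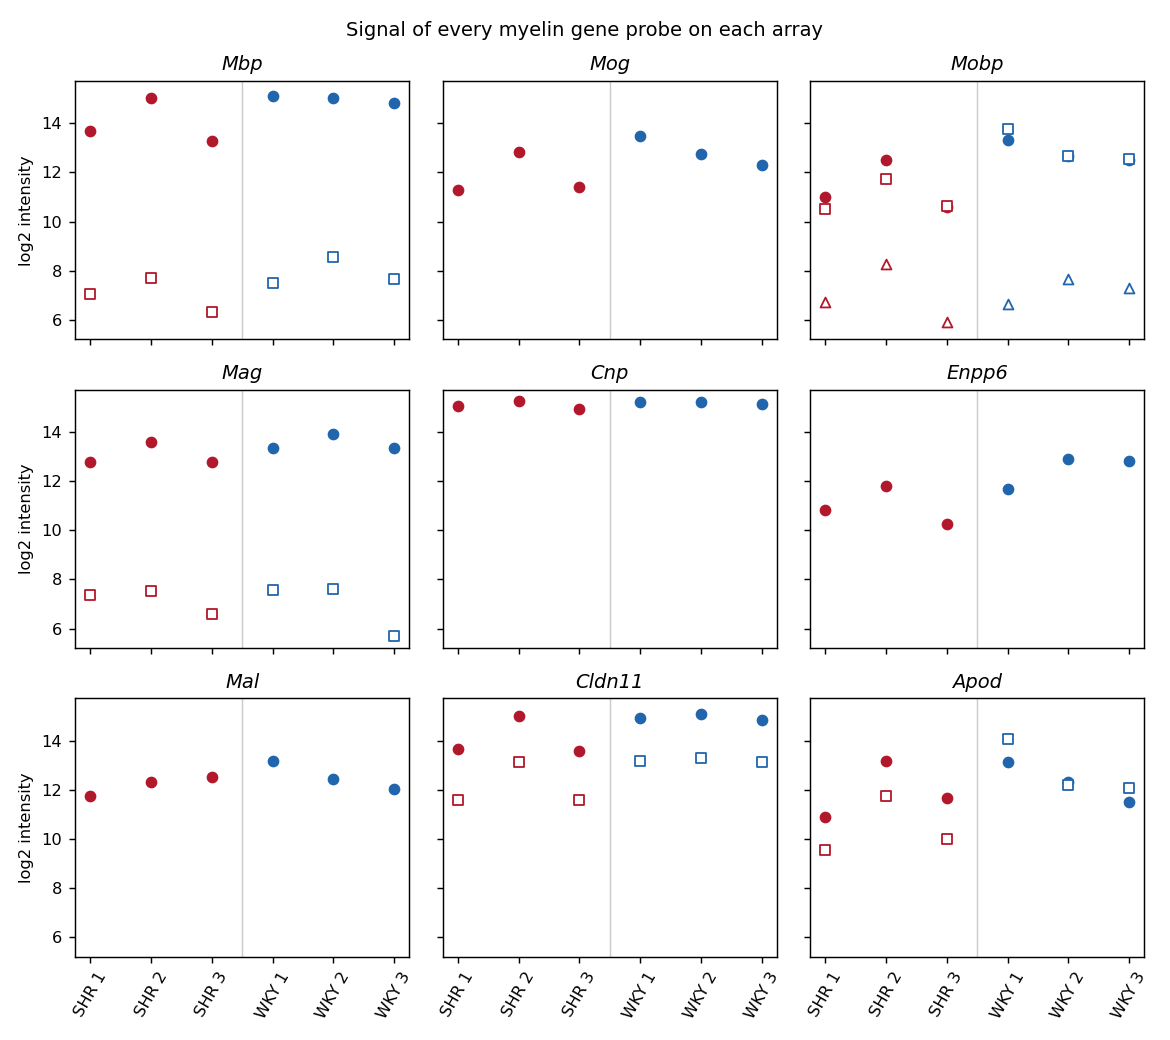
Log2 intensity of each probe of the 9 myelin genes on the 3 SHR arrays (red) and the 3 WKY arrays (blue), 1 panel per gene; filled circles are the gene's brightest probe, open squares and triangles its other probes. At Mbp, Mog, Mobp, Mag, Cnp, Enpp6 and Cldn11 the filled circles of SHR 1 and SHR 3 lie below all WKY arrays, while SHR 2 does not.

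Mbp encodes myelin basic protein, which joins the inner faces of the myelin membrane. Its brighter probe (15015) measured 13171, 33361 and 9786 intensity units on SHR 1, 2 and 3 and 35322, 33585 and 29397 on WKY 1, 2 and 3. SHR 1 and SHR 3 were low, and SHR 2 lay within the WKY values. SHR averaged 13.99 ± 0.92 (log2, SD, n = 3) and WKY 15.00 ± 0.14, giving a difference of -1.01 ± 0.44 (SE, adjusted p = 0.655 in limma). A dim probe of Mbp (159001) gave 132, 206 and 79.8 units in SHR and 183, 380 and 205 in WKY, a difference of -0.90 ± 0.42. Here too SHR 2 was the high SHR array and the groups overlapped.

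Mobp encodes a small basic protein of compact myelin and had 3 probes. Probe 300079 measured 2030, 5817 and 1549 units in SHR and 10070, 6519 and 5795 in WKY, and probe 102037 measured 1453, 3452 and 1580 in SHR and 13867, 6420 and 5913 in WKY. Both had their highest SHR value on SHR 2 and their highest WKY value on WKY 1. The first differed by -1.46 ± 0.51, with SHR 2 just above WKY 3. The second differed by -2.02 ± 0.45 (unadjusted p = 0.00375, adjusted p = 0.468 in limma), a 4.05-fold lower mean in SHR, and its strains did not overlap, as at 7.48% of all probes in this direction. This adjusted p was the smallest of the 15 probes. The third probe of Mobp (85112) was dim, with 107, 309 and 60.9 units in SHR and 101, 203 and 158 in WKY, and its difference was -0.23 ± 0.60. Its highest value of the 6 was that of SHR 2.

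Mog encodes a glycoprotein on the outermost surface of the sheath and is a marker of mature oligodendrocytes. Its probe (117072) measured 2484, 7282 and 2675 units in SHR and 11430, 6991 and 5115 in WKY, a difference of -1.03 ± 0.49 (adjusted p = 0.673 in limma). The value of SHR 2 exceeded those of WKY 2 and WKY 3.

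Mag encodes an adhesion protein of the innermost layer, next to the axon. At its brighter probe (147094) the values were 6939, 12344 and 6937 units in SHR and 10433, 15623 and 10417 in WKY, a difference of -0.50 ± 0.29. SHR 1 and SHR 3 were nearly equal and below every WKY array, and SHR 2 lay between WKY 1 and WKY 2. The other probe of Mag (141099) was the 1 probe of the 15 with a higher mean in SHR, at 0.21 ± 0.56. It was dim, with 166, 184 and 96.3 units in SHR and 188, 197 and 51.5 in WKY, and its sign rested on the low value of WKY 3, since it was -0.42 without that array.

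Cnp and Enpp6 encode enzymes. Cnp, a phosphodiesterase of the cytoplasmic channels of myelin that is made early in the lineage, measured 34329, 38665 and 31761 units in SHR and 38133, 38044 and 35611 in WKY (probe 177105). Its difference was -0.10 ± 0.13 (adjusted p = 0.861 in limma). The highest intensity of any probe on any array was 1.07 times the highest value of Cnp, so this probe lay at the top of the scale. For Mbp probe 15015 and Cldn11 probe 295010 that ratio was 1.17 and 1.19, and whether the scale limited the values of these 3 probes was not tested. SHR 1 and SHR 3 were the lowest of the 6 arrays and SHR 2 the highest. Enpp6, a choline phosphodiesterase that marks newly formed oligodendrocytes, measured 1790, 3576 and 1230 units in SHR and 3313, 7629 and 7173 in WKY (probe 126006). The difference was -1.51 ± 0.48 (unadjusted p = 0.0188, adjusted p = 0.573 in limma), or 2.85-fold. SHR 2 exceeded WKY 1 only, and WKY 1 was the low WKY array, unlike at Mog and Mobp.

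Cldn11 and Mal encode membrane proteins that span the bilayer several times. Cldn11 forms the tight junctions between the layers of central myelin. Its probe 295010 measured 12930, 32774 and 12082 units in SHR and 30719, 34817 and 29475 in WKY, a difference of -0.87 ± 0.39, and its probe 211061 measured 3085, 9051 and 3099 in SHR and 9279, 10023 and 9031 in WKY, a difference of -1.09 ± 0.42 (unadjusted p = 0.0397, adjusted p = 0.632 in limma). The WKY arrays and SHR 2 lay close together at both probes, and SHR 1 and SHR 3 were both well below them. Mal, a proteolipid that sorts membrane components and is also made by epithelia, had another order, with 3444, 5048 and 5913 units in SHR and 9273, 5468 and 4147 in WKY (probe 138001). It differed by -0.34 ± 0.34 (-0.02 without WKY 1 and -0.12 without SHR 1), and its lowest WKY value lay below 2 of the 3 SHR values.

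Apod encodes apolipoprotein D, a secreted lipid carrier made by oligodendrocytes and also by fibroblasts of the meninges. Probe 109024 measured 1928, 9266 and 3231 units in SHR and 9078, 5062 and 2901 in WKY, a difference of -0.40 ± 0.66, and SHR 2 gave the highest value of all. That difference was 0.099 without SHR 1, 0.012 without WKY 1 and -1.03 without SHR 2, so its sign rested on single arrays. Probe 156084 measured 740, 3439 and 1018 units in SHR and 17225, 4642 and 4348 in WKY, a difference of -2.36 ± 0.75 (unadjusted p = 0.0181, adjusted p = 0.572 in limma). Its strains did not overlap. With the probe 102037 of Mobp it made up the 2 of 15 probes with all SHR values below all WKY values, as at 7.48% of all probes. At the brightest probe of each gene this held for 0 of 9. The probes of Apod thus did not give the same size of difference.

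**Figure D2:**
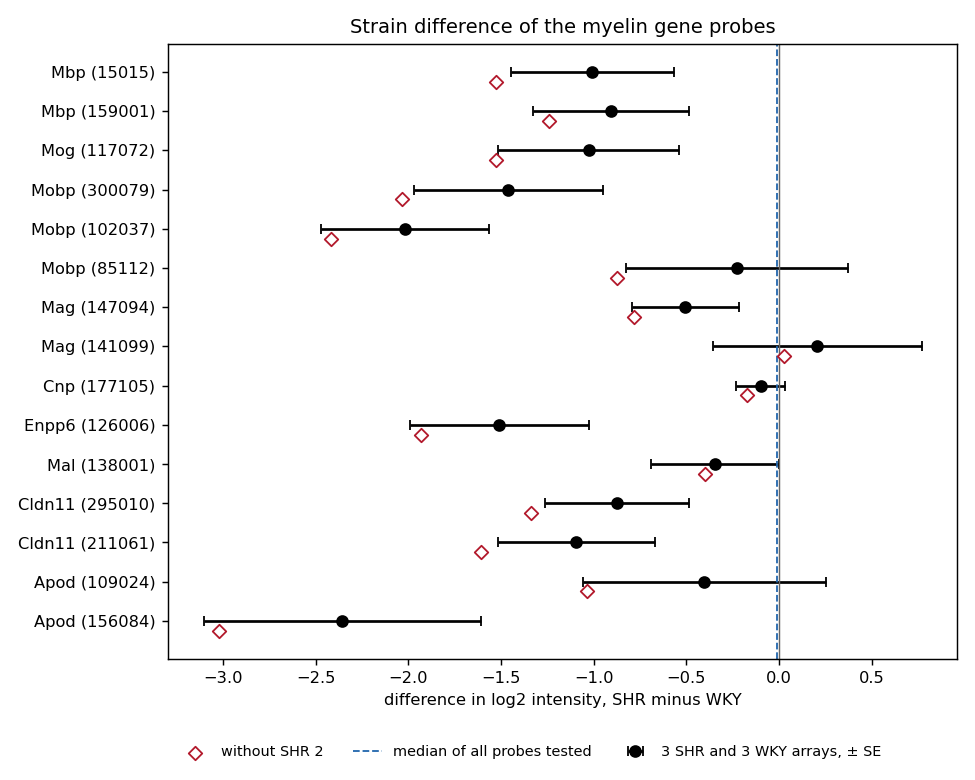
Difference in log2 intensity, SHR minus WKY, of the 15 probes with all 6 arrays (black circles, bars are ± SE from limma) and without SHR 2 (red diamonds, no error shown); the dashed line is the median of all probes, -0.0099. The circles lie below 0 at 14 probes, and all diamonds lie to the left of their circle.

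A single SHR array set much of the spread. At 14 of 15 probes SHR 2 was the brightest SHR array, as at 35.7% of all probes tested, and the exception was Mal. SHR 1 and SHR 3 both lay below every WKY array while SHR 2 did not at 9 of 15 probes, as at 7.82% of all probes; these counts were chosen after the values were seen. At the brightest probe of each gene, SHR 2 exceeded the mean of the other 2 SHR arrays by 0.16 (Mal) to 1.89 (Apod) log2 units, with 1.56 at Mbp, 1.71 at Mobp and 0.23 at Cnp. The median SD within SHR over the 9 genes was 0.80, beside 0.14 for the 6116 probes at least as bright as the dimmest of them, of which 0.916% had an SD as large. Within WKY the median SD of the 9 was 0.42, beside 0.15 for the same 6116 probes.

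Each array was left out in turn. Without SHR 2 the median difference of the 15 probes was -1.34, and 10 stood lower at an unadjusted p under 0.05 (background 5.31%). Without SHR 1 the median was -0.75 and 1 probe stood lower (background 3.32%), and without SHR 3 it was -0.62 and 1 stood lower (background 2.99%). That probe was 102037 of Mobp in both fits. Leaving out WKY 1, WKY 2 or WKY 3 gave medians of -0.89, -0.80 and -1.02, with 3, 2 and 3 probes lower (backgrounds 5.38%, 3.55% and 2.83%). In none of the 6 fits did a member pass an adjusted p of 0.05 in limma, the smallest being 0.183 for Cldn11 without SHR 2. Before normalization between arrays, SHR 2 had the highest median intensity of the 6 arrays, at 571 against 439 to 538 for the others. Its Mbp value was 34233 units before normalization and 33361 after it, against 12247 and 13171 on SHR 1, so the distance between these arrays was present in both.

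The members followed one another across the arrays to different degrees. As a description over the 6 arrays, which include both strains, the Pearson correlation of each gene with the mean of the other 8 was highest for Cldn11 (0.97), Mbp (0.97), Mobp (0.97) and Mog (0.96). It was 0.91 for Cnp, 0.87 for Mag, 0.73 for Apod, 0.69 for Enpp6 and 0.45 for Mal. The pair least alike was Enpp6 and Mal, at -0.0080. Both probes of Cldn11 correlated at 0.996, those of Apod at 0.76, and the bright and the dim probe of Mag at 0.30.

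The place of WKY 1 among the WKY arrays differed between the genes. It was the brightest WKY array at 6 of the 9 genes, against 39.2% of all named genes at their brightest probe. At Mog, Mobp, Mal and Apod it exceeded the mean of WKY 2 and WKY 3 by 0.93, 0.71, 0.96 and 1.24 log2 units. It was also the brightest, by less, at Mbp (0.17) and Cnp (0.05). At Enpp6 it was the dimmest, by -1.16, while at Mag (-0.29) and Cldn11 (-0.06) it lay between WKY 2 and WKY 3. Of the 31 other myelin and mature oligodendrocyte genes tested, 18 had WKY 1 above the mean of the other WKY arrays, such as Opalin (0.89), Ermn (1.65) and Hapln2 (1.59), and 13 had it below, such as Nfasc (-0.99), Tppp (-0.79), Fa2h (-0.74) and Ugt8 (-0.60). Of 15 lineage regulators, 12 had it below, with Sox10 (-1.23), Myrf (-0.95) and Tcf7l2 (-0.94) the lowest, and 3 above, with Id4 (0.47) the highest. Sox10, Myrf and Tcf7l2 encode transcription factors of oligodendrocyte differentiation. The share of all named genes with WKY 1 above the mean of the other WKY arrays was not counted, so these counts stand without a background. This is 1 array, the choice of genes followed a look at their values, and no test was made.

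**Figure D3:**
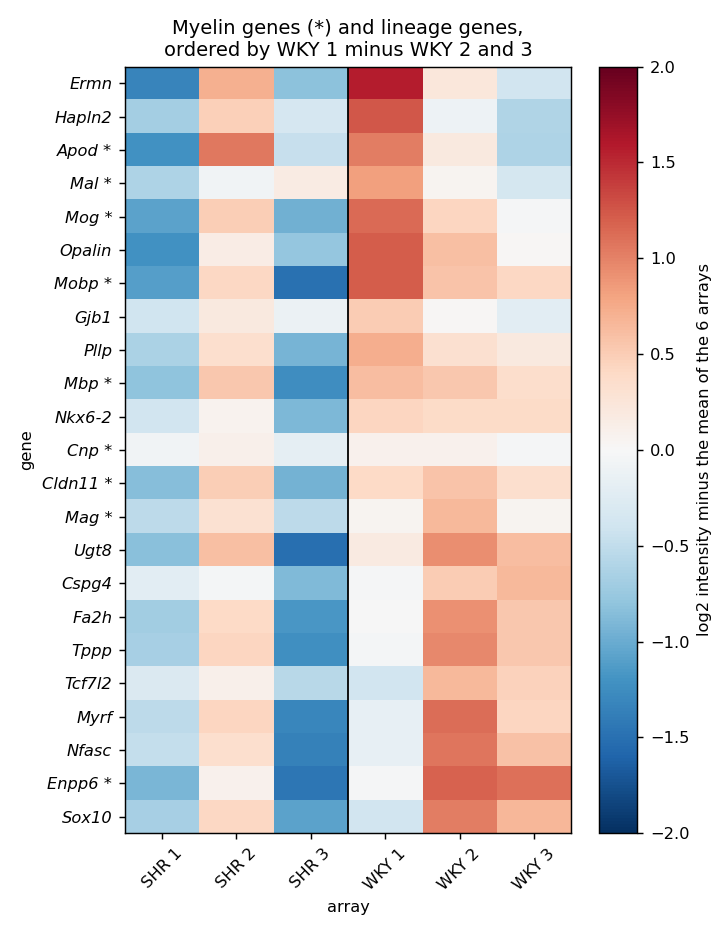
Log2 intensity minus the gene's mean over the 6 arrays (colour scale, red above and blue below) for the 9 myelin genes (marked with an asterisk) and 14 other genes of the lineage, each at its brightest probe, ordered by WKY 1 minus the mean of WKY 2 and WKY 3. The 14 were picked after a look at their values, and all of them had a lower mean in SHR. Of the 31 other myelin genes tested, 10 were above 0, and none of these is shown. SHR 1 and SHR 3 are blue at most genes shown, which follows in part from that choice. The value that orders the genes runs from 1.65 at Ermn, where WKY 1 is red, to -1.23 at Sox10, where WKY 1 is blue and WKY 2 red.

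Of 38 other genes listed for myelin and mature oligodendrocytes, 31 had a probe tested, and 21 were below 0 and 10 above. Of the 12082 named genes at their brightest probe, 50.2% were below 0. The median of the list was -0.30, beside -0.0012 over those named genes. At an unadjusted p under 0.05, 2 genes of the list stood lower (background 3.41%) and 1 higher (background 3.43%), and 0 passed an adjusted p of 0.05 in limma. Opalin, a membrane glycoprotein of mature oligodendrocytes, measured 260, 667 and 352 units in SHR and 1386, 913 and 609 in WKY (-1.22 ± 0.43). Nkx6-2, a transcription factor of oligodendrocyte maturation, measured 1470, 1995 and 1026 in SHR and 2584, 2490 and 2494 in WKY (-0.80 ± 0.25). The strains did not overlap at Nkx6-2, as at 7.4% of all named genes in this direction. The gene that stood higher was Mal2 (0.83 ± 0.34), a relative of Mal. Pllp, a myelin proteolipid, differed by -0.82 ± 0.34. Tf, the transferrin gene, differed by 0.02 ± 0.13 and Gpr37, a receptor of mature oligodendrocytes, by 0.07 ± 0.19.

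Among lineage regulators 11 of 15 tested were below 0, as were 50.2% of all named genes, and the median was -0.08. Hes5, a Notch target that holds back differentiation, was the 1 regulator lower at an unadjusted p under 0.05 (-0.87 ± 0.29; background 3.41%), and 0 stood higher. Sox10 measured 1900, 4029 and 1443 units in SHR and 2316, 6159 and 4766 in WKY, a difference of -0.87 ± 0.50, and Myrf measured 7304, 14030 and 4246 in SHR and 9310, 22783 and 14122 in WKY, a difference of -0.93 ± 0.50. SHR 2 again lay within the WKY values at Sox10 and Myrf, but not at every gene of these lists. Olig1 (-0.04 ± 0.13) and Olig2 (-0.08 ± 0.14), which specify the lineage, differed little. Of 8 precursor markers 6 were below 0, with a median of -0.28, and 2 stood lower at an unadjusted p under 0.05 (background 3.41%), namely Cspg4 (-0.76 ± 0.28), which encodes the NG2 proteoglycan, and C1ql1 (-0.39 ± 0.15). All SHR values, that of SHR 2 included, lay below all WKY values at Hes5, Cspg4, C1ql1 and the precursor marker Sox5. The same held at 7.4% of all named genes. Pdgfra, the growth factor receptor of precursors, differed by 0.37 ± 0.16. Its SHR values all lay above the WKY values, as at 6.77% of all named genes.

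Genes of myelin lipid synthesis had a median of -0.20, with 10 of 14 below 0 and 0 past an unadjusted p of 0.05 in either direction in limma. Of all named genes, 50.2% were below 0, 3.41% stood lower at that level and 3.43% higher. Ugt8, which makes galactosylceramide, measured 3812, 10356 and 2402 units in SHR and 7688, 12999 and 10404 in WKY (-1.15 ± 0.53). Fa2h, which hydroxylates its fatty acids, differed by -0.97 ± 0.44. Both act in making the galactolipids of myelin and are also on the list of other myelin genes. Most enzymes of the list with wider roles in lipid synthesis were also below 0, such as Sqle (-0.84 ± 0.43). Among the 4 genes above 0, the fatty acid desaturase Scd differed by 0.49 ± 0.23 and the squalene synthase Fdft1 by 2.33 ± 1.16. At Fdft1, WKY 1 measured 218 units and the other arrays at least 3228.

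**Figure D4:**
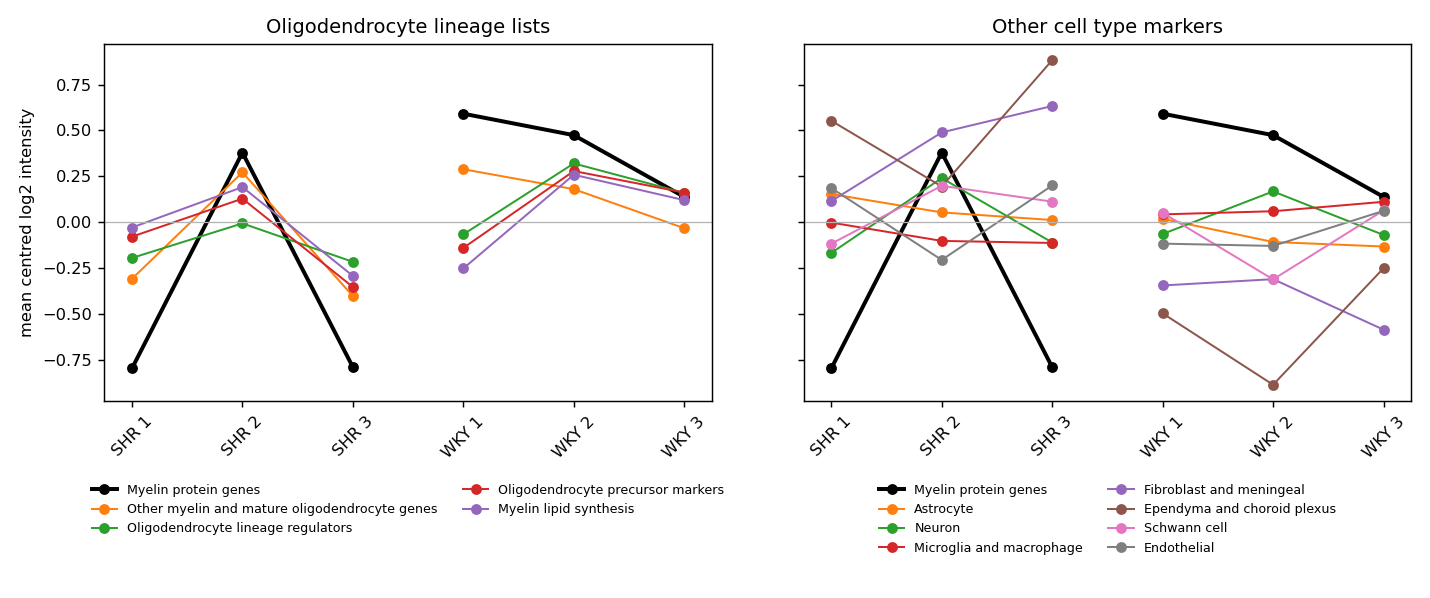
Mean over the genes of each list of the log2 intensity, with each gene's 6-array mean subtracted, by array; left, the 9 myelin genes (black) with 4 oligodendrocyte lists, right, the same 9 with 7 lists of markers of other cells. Lines only join the points of a list within a strain. The scores of the myelin genes are -0.80, 0.38 and -0.79 on the SHR arrays and 0.59, 0.47 and 0.14 on the WKY arrays.

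Markers of other cells were set beside the myelin genes. For the counts below, 50.2% of all named genes were below 0 and 49.8% above. At an unadjusted p under 0.05 in limma, 3.41% of them stood lower and 3.43% higher. The summed intensity of the 9 genes at their brightest probes ranged from 75164 to 148134 units in SHR and from 130030 to 157770 in WKY. Fibroblast and meningeal markers had a median of 0.86, with 8 of 10 above 0 and 6 higher at an unadjusted p under 0.05 (background 3.43%), and summed to 44200 to 51175 in SHR and 31612 to 39488 in WKY. The median of the ependymal and choroid plexus list was 0.94, with 5 of 7 above 0, 2 higher and 1 lower at that level, and summed to 10584 to 19269 in SHR and 3959 to 8143 in WKY. Unlike in the score of the myelin genes, SHR 2 lay apart from the WKY arrays in the scores of both lists. It scored 0.49 and 0.19, against -0.31 and -0.25 at the highest in WKY. In the second list SHR 2 lay above every WKY array at Ttr (5745 against 278, 580 and 1419 units) and at the dim Otx2 (203 against 27.6, 68.6 and 99.6). At Foxj1, Tmem212, Folr1 and Kl of that list it lay within the WKY values, and at Clic6 below them. The part of these markers in the myelin differences was not tested. Microglial markers, with 7 of 9 below 0 and a median of -0.09, summed to 149762 to 150929 in SHR and 151746 to 156846 in WKY. Aif1, Cd68, Csf1r and Tyrobp of this list were each brighter than at least 99.8% of all probes, near the top of the scale, and make up most of that sum. Of the others, Itgam gave -0.40 ± 0.33, Ptprc -0.28 ± 0.23, P2ry12 -0.09 ± 0.22, Cx3cr1 -0.07 ± 0.21 and the dim Trem2 -0.38 ± 0.31. Astrocyte markers had a median of -0.02 and summed to 110704 to 128473 in SHR and 123884 to 127562 in WKY. At an unadjusted p under 0.05 in limma, 1 of them stood higher (Gjb6, 1.28 ± 0.38) and 1 lower (Aldh1l1, -0.45 ± 0.16). Slc1a3, Aqp4 and Aldoc of this list were each brighter than at least 99% of all probes and make up most of that sum. Neuronal markers (8 of 11 with a probe tested, median 0.06) summed to 20669 to 29905 and 22150 to 26091, and their score was highest on SHR 2, at 0.24. Of these, 1 stood higher and 0 lower at that level. The 1 was Nefh, a dim probe with 60.9, 73.8 and 75.2 units in SHR and 57.3, 55.1 and 46.8 in WKY. Schwann cells of peripheral nerve also transcribe Mbp, Mag and Cnp. Of their 9 tested markers 3 were below 0, with a median of 0.05, and they summed to 51314 to 58450 in SHR and 45296 to 65334 in WKY. Of the Schwann markers, S100b, Pmp2 and Pmp22 are also made by glia or fibroblasts of the brain. Endothelial markers had 2 of 6 below 0 and a median of 0.10, and summed to 6178 to 7318 in SHR and 6012 to 6930 in WKY. No tested marker of these lists was listed at or below 0 except Clic6 of the ependymal and choroid plexus list, on at least 1 array. Some markers still lay near the floor. Snap25, Trem2, Nefh, Kl and Cdh19 were each brighter than at most 6.3% of all probes, Clic6 than 9.3% and Otx2 than 16.5%.

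Among the 11654 other named genes valid on all 6 arrays, 189 (1.62%) had a Pearson correlation of at least 0.9 with the mean of the 9 members over the 6 arrays. The 8 most alike were Mtmr2 (0.99), Gtpbp1 (0.99), Ube2e2 (0.99), Plekha1 (0.99), Olfm2 (0.99), Mfsd6 (0.98), Adam23 (0.98) and Atp6v0a1 (0.98). Plekha1, with the largest of the 8, measured 4953, 9553 and 4498 units in SHR and 9708, 9494 and 8749 in WKY, a difference of -0.64 ± 0.29, and Gtpbp1, with the smallest, differed by -0.14 ± 0.12. With 6 arrays and this many genes, such values describe the order of the arrays and carry no test.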

How the data were processed

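Per the series design text, the authors extracted background-subtracted CodeLink spot intensities, left out spots below the negative controls plus 2 SD and applied quantile normalization between arrays; the sources used here do not give versions. The deposited series table holds these normalized intensities, with a median of 494 units in each column, and 615 entries per column are not above 0. The deposited per-sample tables hold intensities with medians of 439 to 571, not normalized between arrays. Here entries of 0 or less were treated as missing and the rest were log2 transformed. A probe was tested (33249 were) if 1 strain had 3 valid values and the other 2 or 3. The two-sided test was limma 3.58.1 (lmFit, eBayes) under R 4.3.3, for SHR minus WKY, and p-values were adjusted over the whole table by the Benjamini-Hochberg method. Lists use the brightest probe of each gene. Gene symbols came from the platform annotation (16753 probes with 1 symbol, 165 with several, 16931 with none), updated at 1 probe through Entrez identifiers of GRCr8. Correlations across probes were 0.969 to 0.980 within a strain and 0.964 to 0.977 between strains. The number of arrays limits the precision.

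The fit was tested on simulated data. The members and lists were chosen with earlier results of these data known. Named were all 9 members, up to 4 genes of each list by smallest p and any gene of the myelin and regulator lists. The 8 genes most like the members, the lipid enzyme Sqle and single markers of other cells were also named. Markers of other cells were otherwise given by counts and sums. The labels do not state if equal numbers in SHR and WKY mark a shared culture day or litter. The main fit thus treated the arrays as unpaired. Taken as deviations from the strain mean, SHR and WKY arrays of equal number correlated at 0.0011, 0.22 and -0.13. Those of unequal number ranged from -0.25 to 0.27. With 3 arrays per strain, these values cannot decide if the numbers mark pairs. Alternatives covered normalization, source of values, offset, probe filters, variance model, array weights, replicate block and each array left out.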

Additional observations from a re-analysis of the deposited data

How the results depend on the processing

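The count of all probes past an adjusted p of 0.05 in limma was 0, with 2545 at an unadjusted p under 0.05. It was 5 with array weights, 5 when a probe had to be valid on all 6 arrays, 9 with 1 probe per gene, 13 at an adjusted p of 0.10, 18 when the dimmest 25% were left out and 28 when limma used an intensity trend with a robust prior. It was 0 in the 4 settings on per-sample intensities, with an offset of 16 units, with 2 valid values in each strain, and without each array in turn. None of the 15 myelin probes passed 0.05 in any setting. With a replicate block (the replicate number as a term in limma), the count past an adjusted p of 0.05 was 0. In that fit 9 myelin probes stood lower in SHR at the unadjusted level of 0.05, against 5 in the main fit. Over the whole table, 2798 probes reached that level in either direction, against 2545. The share of all probes lower in SHR was not counted with the block, so the 9 stand without a background. The median myelin difference was -0.90 and lay between -1.01 and -0.84 over the alternatives that kept all 6 arrays, and between -1.34 and -0.62 without single arrays. It was -1.02 over the 12 probes at least as bright as the median probe and -0.87 over the brightest probe of each gene, both chosen after seeing the data. In the unnormalized intensities the median of all probes was 0.12 and that of the myelin probes -0.84. Of 262 values of single myelin probes under the alternatives, 257 kept their direction and 5 turned, all without single arrays: Apod probe 109024 ranged from -1.03 to 0.099, Mobp probe 85112 from -0.87 to 0.30 and Mag probe 141099 from -0.42 to 0.54. The cause was not tested.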
